A study of Mus musculus with 8 samples.

Results

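The genes described here are 10 transcripts of 6 imprinted domains, *Airn*, *Igf2r*, *Kcnq1ot1*, *Snhg14*, *Snrpn*, *H19*, *Igf2*, *Meg3*, *Rian* and *Peg3*, in which R-loops were mapped by DRIP-seq in mouse embryonic fibroblasts (MEFs). They were chosen by name and not by their signal, and are 10 of the 55450 genes of GENCODE M21 (4 protein-coding, 6 long non-coding RNAs). A peak was assigned to a gene when it overlapped the body, extended by 1 kb to each side, by at least 1 bp. This gave 80 distinct peaks over 1248 kb, with 16 and 12 in the mock and DOX lists of GFP cells and 19 and 33 in those of Cre cells. Values given for each list in a row follow this order. There were 89 pairs of a gene and a peak because *Airn* and *Igf2r* overlap.

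Every library came from MEFs with both alleles of *Rtel1* floxed and with WT RNaseH1-GFP under control of doxycycline. *Rtel1* encodes a helicase that unwinds G-quadruplexes (G4s), and RNaseH1 degrades the RNA of an RNA:DNA hybrid. GFP cells received a control adenovirus that expresses GFP, Cre cells an adenovirus for Cre-GFP that removes the floxed sequence. DOX cells were given doxycycline at 2 µg/ml 48 h after infection and harvested after a further 48 h, and mock cells were not given the drug. Each condition had 1 DRIP library made from 3 pooled immunoprecipitations, so there is no replicate error against which a difference between conditions could be tested, and no p-value is given. The lists hold 60219 to 105081 peaks, and the sequencing depth behind them is unknown. Percentages of peaks carry an exact Clopper-Pearson interval at 95%, which cover counting error only and treat peaks of the same gene as independent. Because a peak list of DNA does not measure expression, neither the fibroblast identity of the cells nor the loss of *Rtel1* could be checked in it.

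Imprinted genes are expressed mainly from the maternal or the paternal copy, which is set by DNA methylation at a control region. Several such domains contain a long non-coding RNA: *Airn* is transcribed antisense to *Igf2r* from a promoter inside it and silences the gene in cis, *Kcnq1ot1* runs antisense within *Kcnq1*, and *Snhg14* is a long host transcript of small nucleolar RNAs next to *Snrpn*. In an R-loop a transcript stays annealed to the DNA it was copied from, which leaves the opposite strand unpaired and, where it is rich in G, free to fold. DRIP peaks carry neither strand nor parental allele, so a peak over overlapping genes could not be assigned to either transcript, nor to the active or the silent copy.

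Sequences from some of the peaks are given first, on the strand of the gene and in mm10. None of them comes from *Snhg14* or *Snrpn*. The first 5 were taken from peaks that overlapped the 1 kb to either side of an annotated start site of the gene. For the first *Airn* and the *Igf2* sequence the peak reached this window at its edge alone, and the bases shown lie outside it. The last 2 are stretches common to 3 of the 4 lists and were chosen after their values were seen, as examples of repeat-masked sequence. Capitals mark bases inside windows of 25 bases with an absolute G4Hunter score of at least 1.5, the threshold for a predicted G4, and the other bases are in lower case. From peaks wider than 300 bp the middle 300 bases of the peak, or of the stretch shared by lists, are shown.
Airn near its start, chr17:12742466-12742572, plus strand: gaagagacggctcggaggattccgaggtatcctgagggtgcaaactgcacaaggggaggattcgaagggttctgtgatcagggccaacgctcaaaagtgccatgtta
Airn internal start site, chr17:12815944-12816132, plus strand: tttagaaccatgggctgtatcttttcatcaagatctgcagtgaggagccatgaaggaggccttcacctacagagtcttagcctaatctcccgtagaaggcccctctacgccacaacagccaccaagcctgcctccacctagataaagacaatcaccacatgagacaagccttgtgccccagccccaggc
Igf2r internal start site, chr17:12750807-12751106, minus strand: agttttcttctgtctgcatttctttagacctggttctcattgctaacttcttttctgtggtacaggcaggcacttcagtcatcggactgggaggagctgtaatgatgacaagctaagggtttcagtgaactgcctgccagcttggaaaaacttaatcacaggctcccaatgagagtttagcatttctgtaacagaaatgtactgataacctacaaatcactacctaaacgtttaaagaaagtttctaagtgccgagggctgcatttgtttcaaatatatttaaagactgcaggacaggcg
Igf2 beside Mir483, chr7:142654602-142654901, minus strand: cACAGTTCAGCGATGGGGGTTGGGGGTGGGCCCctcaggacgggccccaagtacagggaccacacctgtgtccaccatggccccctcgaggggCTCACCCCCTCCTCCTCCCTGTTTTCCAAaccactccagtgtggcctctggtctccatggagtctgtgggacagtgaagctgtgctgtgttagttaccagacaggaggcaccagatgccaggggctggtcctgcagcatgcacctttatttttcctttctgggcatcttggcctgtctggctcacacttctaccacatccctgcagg
H19 5′ end, chr7:142577582-142577794, minus strand: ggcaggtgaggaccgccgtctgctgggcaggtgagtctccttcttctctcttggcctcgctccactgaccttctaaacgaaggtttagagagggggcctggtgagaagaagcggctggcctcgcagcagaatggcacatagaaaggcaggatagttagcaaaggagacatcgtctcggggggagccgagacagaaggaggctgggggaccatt
Kcnq1ot1 repeat stretch, chr7:143223023-143223106, minus strand: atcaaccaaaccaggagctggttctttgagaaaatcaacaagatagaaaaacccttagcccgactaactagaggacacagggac
Airn repeat stretch, chr17:12825335-12825376, plus strand: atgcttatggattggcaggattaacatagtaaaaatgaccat

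The first *Airn* sequence, 107 bases with 54.2% GC and 5 CpGs, was common to GFP mock and GFP DOX. The *Igf2* sequence beside Mir483 was common to GFP mock and Cre mock, and 61 of its 300 bases lay in predicted G4 windows, on a G-rich and a C-rich run. *H19* gave 213 bases with 58.7% GC and 9 CpGs that were called in Cre DOX. The *Kcnq1ot1* repeat stretch of 84 bases and the *Airn* repeat stretch of 42 bases were both 100% repeat-masked, and each was called in GFP DOX and in both Cre lists.

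At least 1 peak was found in 6 of the 10 genes in GFP mock, 5 after doxycycline in GFP cells and 6 in either of the Cre lists, where 32.6%, 25.5%, 35% and 32% of all annotated genes had one. Of the 10, 3 (*Airn*, *Igf2r* and *Snrpn*) had a peak in every list, as did 17.2% of all genes, and 8 had one in at least 1 list, as did 47.7%. *Rian*, a maternally expressed long RNA that hosts small nucleolar RNAs, and *Peg3*, a paternally expressed zinc-finger gene, had none. A longer gene more often held a peak, and 6 of the 10 are over 50 kb long. Among all genes of 50 to 100 kb, the class of *Igf2r*, *Kcnq1ot1* and *Rian*, 77.2%, 61.4%, 80.1% and 74.4% had a peak in the same 4 lists. Peaks in the top decile of scores of their list, the filter of the study, were present in 3, 0, 0 and 1 of the 10 genes, against 7.39%, 5.5%, 9.04% and 5.92% of all genes.

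**Figure D1:**
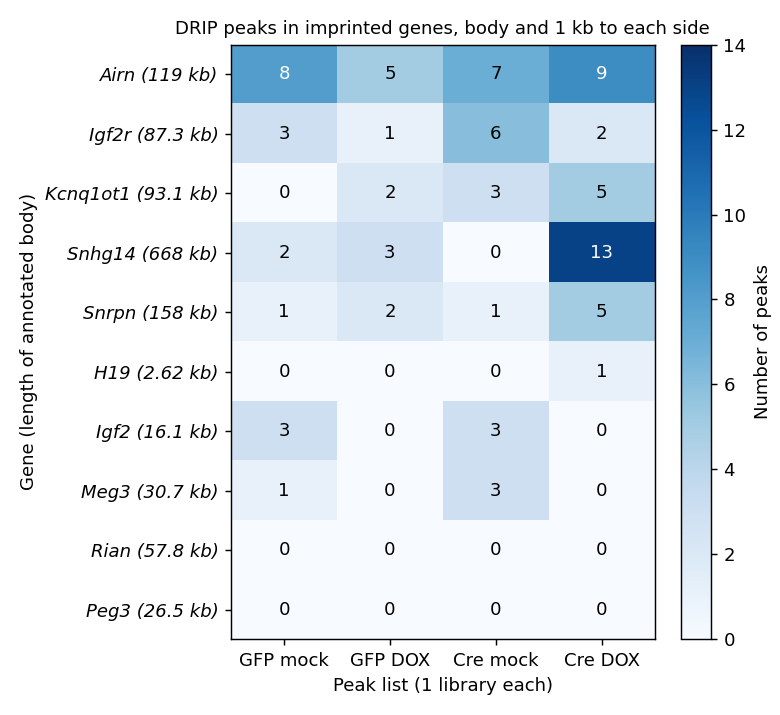
Number of DRIP peaks (cell text and colour) in each of the 10 imprinted genes (rows, with body length in kb) in each peak list (columns, 1 library each). *Airn* had 5 to 9 peaks in every list, *Snhg14* ranged from 0 in Cre mock to 13 in Cre DOX, and *Rian* and *Peg3* had 0 throughout.

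*Airn* (chr17:12741311-12860136, plus strand, 119 kb) held 8 peaks in GFP mock and 5 in GFP DOX, and 7 and 9 in the Cre lists. It had more peaks than the mean of genes of its length class in each list (3.77, 2.53, 4.47 and 3.88), on a chromosome with a high density of peaks. *Igf2r* (chr17:12682406-12769664, minus strand), the receptor that clears IGF2, held 3, 1, 6 and 2. The 28.4 kb that both genes cover contained 2, 1, 4 and 2 peaks. In the 58.9 kb of *Igf2r* outside *Airn* there were 1, 0, 2 and 0 peaks, and in the 90.5 kb of *Airn* beyond the 5′ end of *Igf2r* there were 6, 4, 3 and 7. Of the 12 *Igf2r* peaks over the 4 lists, 9 therefore lay in sequence that *Airn* also covers.

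The peaks nearest to the start of *Airn* were those of the GFP cells. GFP mock had a peak at chr17:12742377-12742841, which began 1.07 kb from the start and reached into the 1 kb around a start site at its edge alone, with its middle 1.21 kb away (score 30, 3.98-fold enrichment), with 19 CpGs and a predicted G4. GFP DOX had a narrower peak inside it at chr17:12742466-12742572 (score 16, 3.36-fold). The nearest peaks of the Cre cells were 9.23 kb from the start without doxycycline and 15.5 kb with it. The other promoter peaks of the pair came from Cre mock and lay at internal start sites, at chr17:12815944-12816132 for *Airn* (score 21, 3.43-fold) and at chr17:12750546-12751367 for *Igf2r* (score 20, 3.48-fold), the latter with a predicted G4. Neither had an overlapping peak in another list. The bases printed above for this *Igf2r* peak, and those from the GFP mock peak near the *Airn* start, contain no predicted G4 window.

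A stretch of 7864 bp in the 3′ part of *Airn*, chr17:12818830-12826693, was the only one of 30 stretches of peaks, joined over gaps of up to 2 kb, with peaks of all 4 lists. It held 3 and 2 peaks in the GFP lists and 2 and 5 in the Cre lists, and 62.2% of it was repeat-masked. No single position in it was shared by all 4 lists. The highest *Airn* scores of GFP mock (43, 4.91-fold, chr17:12818830-12819227) and Cre DOX (36, 4.02-fold, chr17:12822943-12823238) both fell in this stretch, 77.7 and 81.8 kb from the start. The first of these was free of masked repeat and the second was 86.8% masked, and neither overlapped a peak of another list. The Cre DOX peak was the highest-scoring of its list in the 10 genes.

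*Kcnq1ot1* (chr7:143203458-143296549, minus strand, 93.1 kb) had no peak in GFP mock and 2 in GFP DOX, and 3 without and 5 with doxycycline in Cre cells. All 10 peaks fell in 1 stretch of 10715 bp, chr7:143218925-143229639, between 66.9 and 77.6 kb from the start of the transcript, and all were over 50% repeat-masked, although 28.4% of the gene body is masked. The stretch spans 20 restriction fragments and lies in *Kcnq1* as well. Its GC content was 38.3%, and none of the peaks held a predicted G4. The highest-scoring peak of Cre mock in the 10 genes was in it, at chr7:143221419-143221961 (score 29, 4.21-fold). Cre DOX covered 6667 bp of the gene, against 1365 bp in GFP DOX and 1225 bp in Cre mock. The start of *Kcnq1ot1* was 66.9 kb or more from the nearest peak in each list, beyond the medians over all genes of 11.3, 20.6, 11 and 11.4 kb.

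*Snhg14* (chr7:59307924-59975759, minus strand, 668 kb) had 2 peaks in GFP mock and 3 in GFP DOX, and Cre cells had none without doxycycline and 13 with it. Genes of its length class, the longest, had means of 9.27, 5.84, 9.38 and 10.7 peaks, so that *Snhg14* was below the mean in the first 3 lists and above it in Cre DOX. Chromosome 7 as a whole is poor in peaks, at 1.85, 1.36, 2.21 and 3.03 per 100 kb against 3.31, 2.27, 3.44 and 3.97 over the genome. Its peak at chr7:59664981-59665112 in GFP mock had the highest score of all 80 (48, 5.31-fold), was 132 bp wide and 16.7% masked, and had no counterpart elsewhere. Another position, chr7:59915074-59918455, had peaks in both GFP lists and in Cre DOX and was 97.2% masked. Of the 18 peaks, 13 were mostly masked, in a gene body that is 62.2% masked, and none had a predicted G4. The lone promoter peak was that of Cre DOX at chr7:59409907-59410369 (score 10, 2.61-fold), whose middle was 1.03 kb from an internal start site and 566 kb from the 5′ end.

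*Snrpn* (chr7:59982495-60140219, minus strand, 158 kb), which encodes a spliceosomal protein, had 1, 2, 1 and 5 peaks, all intronic and all mostly masked. They fell in 2 stretches, chr7:60050867-60056129 with peaks in GFP DOX and both Cre lists, and chr7:60068036-60068921 with peaks in both GFP lists and in Cre DOX. The highest-scoring peak of GFP DOX in the 10 genes was at chr7:60054118-60054342 (score 26, 4.21-fold). The nearest peak to the start of the gene was 32.3 to 33.8 kb away in the 4 lists, so the 5′ end of the gene model had no peak.

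*Igf2* (chr7:142650766-142666816, minus strand, 16.1 kb), a paternally expressed growth factor, had 3 peaks in GFP mock and 3 in Cre mock, and none in GFP DOX or Cre DOX. The 6 peaks had 53.8 to 71.6% GC, none was mostly masked, and 4 had a predicted G4. Those of GFP mock included chr7:142654573-142655084 (score 22, 3.76-fold) and chr7:142658213-142658360 (score 16, 3.41-fold), both overlapping the 1 kb around a start site, the first at its edge alone with its middle 1.19 kb away. The first covered the 73 bp of the Mir483 hairpin, a microRNA within the gene, and overlapped a peak of Cre mock at chr7:142654485-142654931 (score 13, 3.09-fold). The other peaks of Cre mock were closer to the 5′ end. That at chr7:142660779-142660954 lay at a start site (score 18, 3.37-fold). The peak at chr7:142663935-142664303 (score 27, 4.02-fold) was a CpG-rich stretch with 46 CpGs, 70.7% GC and an observed over expected CpG ratio of 0.998. Among all genes of 5 to 20 kb, 31.7% had a peak in GFP DOX and 38.2% in Cre DOX, so the absence of peaks there is common for the length.

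*H19* (chr7:142575529-142578143, minus strand, 2.62 kb), the maternally expressed RNA of the same domain, had 1 peak, called in the Cre DOX list at chr7:142577582-142577794 near its 5′ end (score 17, 3.06-fold). Its score was below the median of 18 of that list, and 14.3% of genes under 5 kb had a peak in it. In the other lists the nearest peak to its start was 19.2 to 83 kb away.

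On chromosome 12, *Meg3* (chr12:109541001-109571726, plus strand, 30.7 kb), a maternally expressed long RNA, had 1 peak in GFP mock and 3 in Cre mock, and none after doxycycline in either genotype. Their scores were low, from 14 to 16, their GC content was 51.1 to 57.3%, and 2 of the 4 had a predicted G4. The Cre mock peak at chr12:109548351-109548776 lay at an internal start site (score 15, 3.26-fold). *Rian* (chr12:109603940-109661716, plus strand) had peaks near but outside it, with the nearest 8.05 to 14.9 kb from its start. The start of *Peg3* (chr7:6703892-6730431, minus strand) was 39.4 kb from the nearest peak in Cre DOX, 54.5 kb in GFP mock, and 217 and 218 kb in the other lists. In genes of 20 to 50 kb, the class of *Meg3* and *Peg3*, 58.8%, 46%, 63.6% and 57.9% had a peak.

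**Figure D2:**
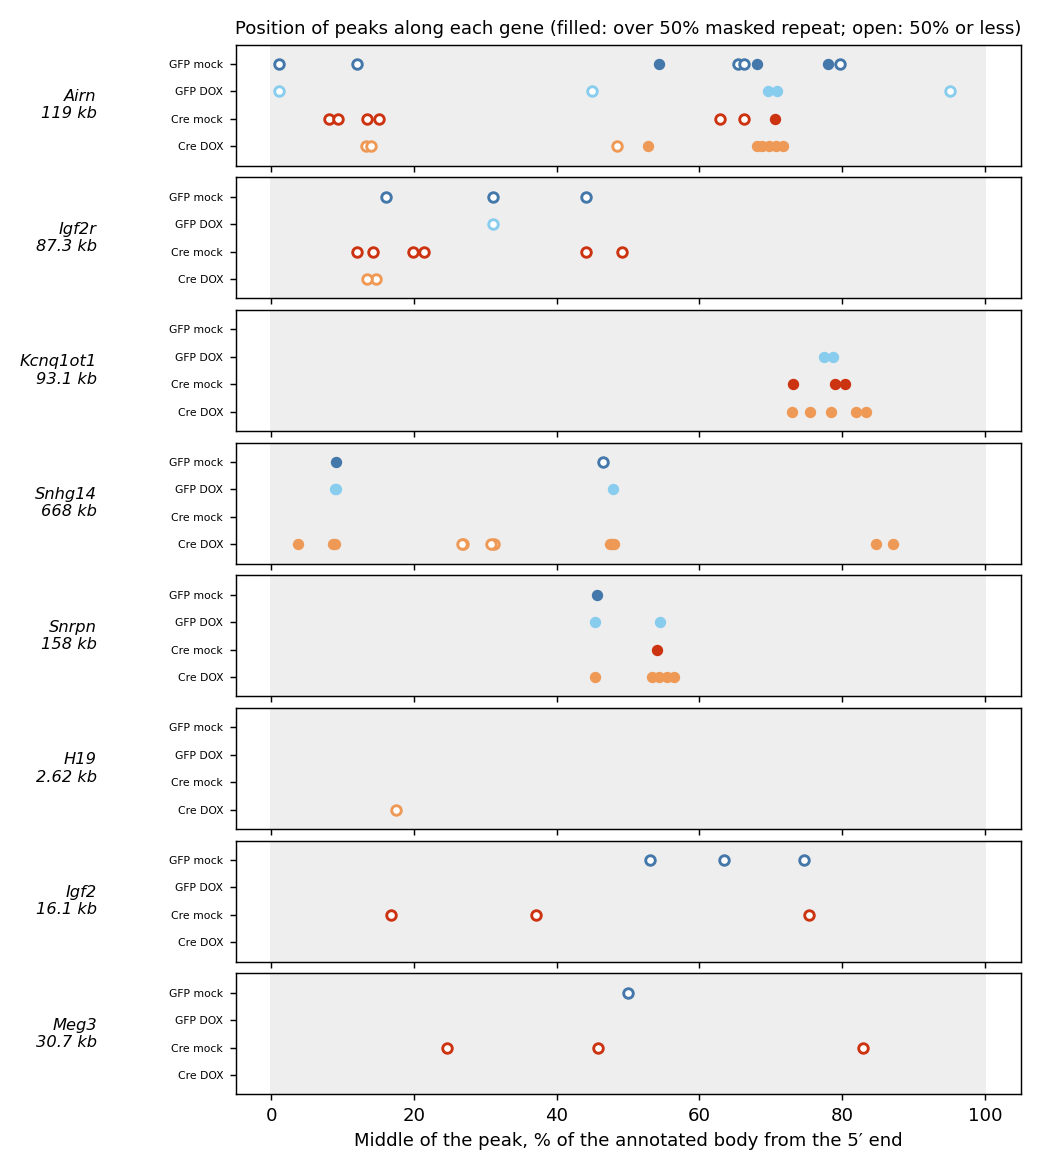
Position of each peak (point at the middle of the peak, 1 row per list) along the 8 imprinted genes with a peak, as percent of the annotated body (grey) from the 5′ end; filled points are over 50% repeat-masked. The 10 peaks of *Kcnq1ot1* and the 9 of *Snrpn* were all filled and grouped in few places, and the 6 of *Igf2* and the 4 of *Meg3* were open and present in the mock lists only.

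Of the 89 pairs of a gene and a peak, 10 were at promoters, 12 in exons and 67 in introns, and none lay solely in the 1 kb flanks. The exonic ones were the 10 of *Kcnq1ot1*, which is annotated as unspliced, and 1 each in *Igf2r* and *Meg3*. Promoter peaks numbered 4 in either mock list, where 2 of those in GFP mock met the window at its edge alone, 0 in GFP DOX and 2 in Cre DOX. Of those in Cre DOX, the *Snhg14* peak had its middle 1.03 kb from the start site, just outside the window. Of all peaks that overlapped a gene or promoter, 28.2%, 31.8%, 29.6% and 24.8% lay at a promoter of any gene, and 61.7%, 55.7%, 56.1% and 65.4% lay in introns. These shares used start sites and exons of every annotated gene and counted each peak once. The pairs were classed by start sites and exons of their own gene alone, so the counts of pairs and these shares are not like for like. The scores of peaks in the 10 genes were close to the middle of their lists, with medians of 17, 16, 18 and 17 beside 18, 17, 19 and 18 for all peaks. In the top decile were the GFP mock peaks in *Snhg14* and *Airn* already given, a GFP mock peak in *Igf2r* at chr17:12731110-12731218 (score 36, 4.63-fold), and the *Airn* peak of Cre DOX.

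**Figure D3:**
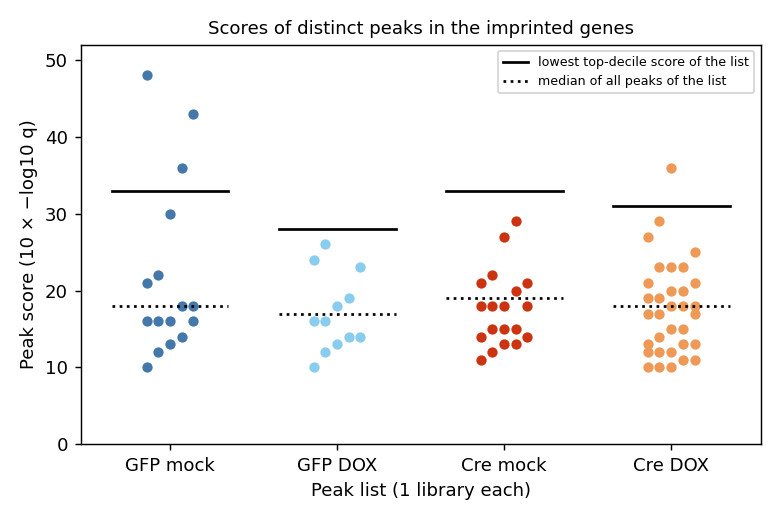
Scores (10 times −log10 q, each point 1 of the 80 distinct peaks in the imprinted genes) by peak list, with the median of all peaks of the list (dotted) and its lowest top-decile score (solid). In GFP mock 3 points and in Cre DOX 1 point lie above the solid line, and none in the other lists.

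The effect of *Rtel1* deletion was addressed by comparing Cre with GFP. Cre mock had 19 peaks in the 10 genes and GFP mock 16, a ratio of 1.19, with 1.04 over all peaks. The ratio turned to 0.833 with equal numbers of peaks per list and to 0 with top-decile peaks. As a share of the list it was 1.14, and as covered length it was 1.59, with 1.31 over all peaks. Cre mock had more peaks in 3 of the 10 genes (20.4% of all genes) and fewer in 2 (13.3%). In this and the later comparisons of lists, the shares of all genes are not matched for length. Only 47.7% of all genes had a peak in at least 1 list. *Kcnq1ot1* had a peak in Cre mock and none in GFP mock (1 of 10 genes, with 9.7% of all genes), and *Snhg14* the reverse (1 of 10, with 7.25%). Of the Cre mock peaks, 16 of 19 (84.2%, interval 60.4 to 96.6%) had no overlapping peak in GFP mock, against 64.8% of all Cre mock peaks. In the reverse direction this held for 13 of 16 (81.2%, 54.4 to 96%), against 61.5%. After doxycycline, Cre DOX had 33 peaks and GFP DOX 12, a ratio of 2.75 with 1.74 over all peaks. Held to equal numbers of peaks per list, or as a share of the list, the ratio was 1.58, and as covered length it was 4.2, with 2.78 over all peaks. Cre DOX had more peaks in 6 of the 10 genes (20.4% of all genes) and fewer in 0 (9.61%). *Airn* and *Igf2r* are both among the 6, and the 2 Cre DOX peaks of *Igf2r* also lay in *Airn*. *H19* had a peak in Cre DOX and none in GFP DOX (1 of 10, with 11.4% of all genes), and no gene had the reverse (0 of 10, with 4.88%). Of the Cre DOX peaks 26 of 33 (78.8%, 61.1 to 91%) had no counterpart in GFP DOX, against 70.3% of all, while 3 of 12 GFP DOX peaks (25%, 5.49 to 57.2%) had none in Cre DOX, against 37.5%.

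Induction of RNaseH1 is meant to remove RNA:DNA hybrids, and was examined by comparing DOX with mock within a genotype. In GFP cells there were 12 peaks after doxycycline and 16 without, a ratio of 0.75, with 0.687 over all peaks. With equal numbers of peaks per list the ratio was 1. GFP DOX had more peaks in 3 of the 10 genes (9.91% of all genes) and fewer in 4 (20.1%). *Igf2* and *Meg3* had peaks in GFP mock and none in GFP DOX (2 of 10 genes, with 11.9% of all genes), and *Kcnq1ot1* the reverse (1 of 10, with 4.78%). As a share of the list the ratio was 1.09, and as covered length it was 1.07, with 0.885 over all peaks. Of the GFP mock peaks, 14 of 16 (87.5%, 61.7 to 98.4%) had no counterpart in GFP DOX, against 69.4% of all, and 10 of 12 GFP DOX peaks (83.3%, 51.6 to 97.9%) had none in GFP mock, against 57%. In Cre cells there were 33 peaks after doxycycline and 19 without, a ratio of 1.74, with 1.15 over all peaks. *Snhg14* held 13 of the Cre DOX peaks and none of Cre mock, and without it there were 20 and 19 peaks, a ratio of 1.05. As covered length the ratio of the 10 genes was 2.83, with 1.87 over all peaks. Cre DOX had more peaks than Cre mock in 5 of the 10 genes (13.6% of all genes) and fewer in 3 (20.3%). *Igf2* and *Meg3* had peaks in Cre mock and none in Cre DOX (2 of 10, with 9.98% of all genes), and *Snhg14* and *H19* the reverse (2 of 10, with 6.95%). Of the Cre DOX peaks 28 of 33 (84.8%, 68.1 to 94.9%) had no counterpart in Cre mock, against 63.6% of all, and 13 of 19 Cre mock peaks (68.4%, 43.4 to 87.4%) had none in Cre DOX, against 51.3%.

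The peaks differed in sequence between mock and DOX lists. Over 50% of the peak was repeat-masked in 5 of 16 peaks in GFP mock (31.2%, 11 to 58.7%) and 5 of 19 in Cre mock (26.3%, 9.15 to 51.2%), but in 9 of 12 in GFP DOX (75%, 42.8 to 94.5%) and 25 of 33 in Cre DOX (75.8%, 57.7 to 88.9%). Over all peaks the shares were 63.8% and 54.1% in the mock lists of GFP and Cre cells and 63.1% and 75.2% in their DOX lists. The remaining, mostly unmasked peaks numbered 11 in GFP mock and 3 in GFP DOX, and 14 in Cre mock and 8 in Cre DOX. Their DOX over mock ratios were 0.273 for GFP and 0.571 for Cre cells, where those over all unmasked peaks were 0.699 and 0.623. The ratios of masked peaks were 1.8 and 5, where those over all masked peaks were 0.68 and 1.6. With mostly unmasked peaks alone, Cre DOX thus had fewer peaks than Cre mock in these genes, and with all peaks it had more. Without *Snhg14* the Cre lists had 14 unmasked and 5 masked peaks without doxycycline, and 4 and 16 with it.

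**Figure D4:**
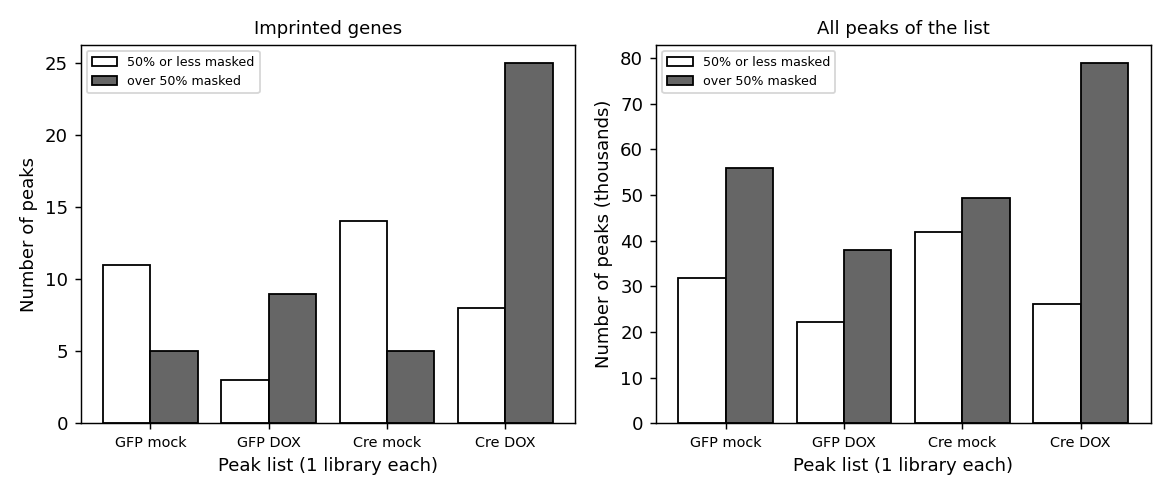
Number of peaks that are 50% or less repeat-masked (white) or over 50% (grey) in the imprinted genes (left) and over each whole list (right), by peak list (1 library each, no error available). In the imprinted genes the white bars are lower in each DOX list than in its mock list (3 against 11 and 8 against 14), and the grey bars are higher (9 against 5 and 25 against 5).

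Median GC content was 52% in GFP mock and 50.2% in Cre mock and 37.3% in GFP DOX and 41.2% in Cre DOX, beside 46%, 44.7%, 42.1% and 41.6% for all peaks. A predicted G4 was present in 6 of 16 peaks in GFP mock (37.5%, 15.2 to 64.6%) and 6 of 19 in Cre mock (31.6%, 12.6 to 56.6%), and in 0 of 12 in GFP DOX (0%, 0 to 26.5%) and 2 of 33 in Cre DOX (6.06%, 0.743 to 20.2%). In list order, the shares over all peaks were 24.2%, 20.3%, 24.8% and 23%. By gene, with a shared peak counted for each gene, those with a predicted G4 numbered 7 of 29 in *Airn*, 5 of 12 in *Igf2r*, 4 of 6 in *Igf2*, 2 of 4 in *Meg3*, 1 of 9 in *Snrpn*, and 0 in *Kcnq1ot1*, *Snhg14* and *H19*. The narrowest peak also differed between lists, from 106 bp in GFP mock to 213 bp in Cre DOX. With peaks of at least 213 bp in every list, the mostly masked share was 36.4% and 80% in the GFP lists and 28.6% and 75.8% in the Cre lists, and the ratios of peaks were 1.27 for Cre mock over GFP mock, 0.909 for GFP DOX over GFP mock, 2.36 for Cre DOX over Cre mock and 3.3 for Cre DOX over GFP DOX.

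Of the 80 distinct peaks, 45 overlapped no peak of another list, 27 overlapped peaks of 1 other list, 8 of 2 others and 0 of all 3 others. Over all peaks of the 4 lists the shares were 37.6%, 24.6%, 18.5% and 19.2%. The 30 stretches had peaks of 1 list in 18 cases, of 2 lists in 6, of 3 lists in 5 and of 4 lists in 1. Those with 3 lists were the *Kcnq1ot1* stretch, the pair in *Snrpn*, the *Snhg14* stretch at chr7:59915074-59918455 and the stretch at chr17:12755368-12759410 in the overlap of *Airn* and *Igf2r*. The first 4 of these were 94.8 to 99.4% repeat-masked, and the last was 16.5% masked with peaks in GFP mock, Cre mock and Cre DOX. Repeat-masked sequence has copies elsewhere in the genome, and the mappability of these stretches was not measured.

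Set against their own chromosomes, the genes on chromosome 17 had 5.01, 2.78, 5.01 and 5.01 peaks per 100 kb over the 4 lists, where the chromosome had 5.05, 3.66, 5.35 and 5.45. On chromosome 7 they had 0.615, 0.717, 0.717 and 2.46, below the chromosome in each list. On chromosome 12 they had 1.08, 0, 3.24 and 0, where the chromosome had 1.53, 0.954, 1.62 and 2.46.

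**Figure D5:**
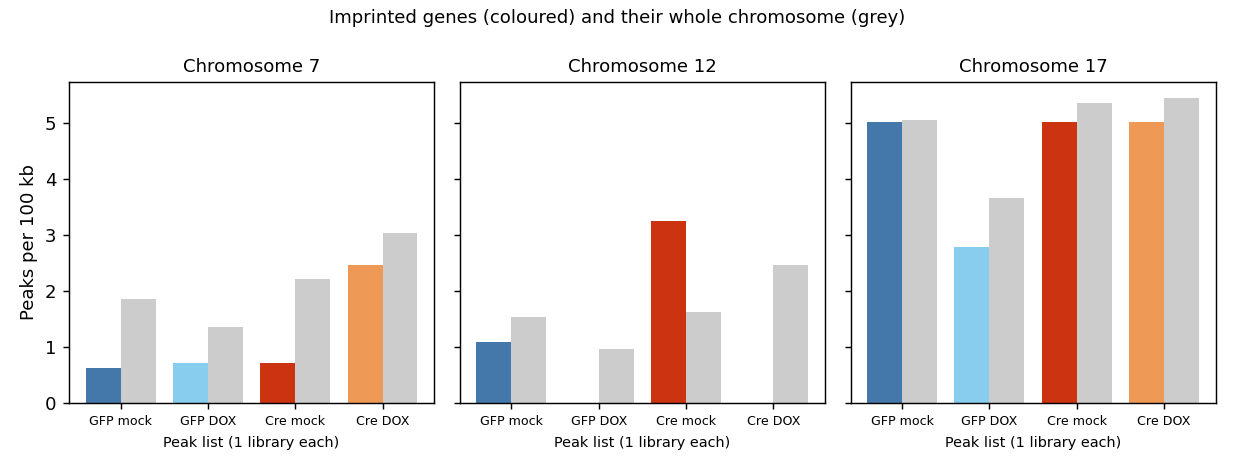
Peaks per 100 kb in the imprinted genes (coloured bars, by list) and on the whole chromosome that carries them (grey bars) for chromosomes 7, 12 and 17; 1 library per list, no error available. The genes on chromosome 7 lie below their chromosome in each list and come closest to it in Cre DOX (2.46 against 3.03).

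Other imprinted genes, a list of 59 that excludes the 10, were counted by the same rule. A peak was found in 34 (57.6%) in GFP mock and 23 (39%) in GFP DOX, and in Cre cells in 31 (52.5%) without and 25 (42.4%) with doxycycline, against the 32.6%, 25.5%, 35% and 32% of all genes. The shares of all genes in this comparison are not matched for length. Of all genes, 31046 are under 5 kb, where 14%, 10%, 15.4% and 14.3% had a peak. Many of the 59 are longer, and among all genes of 20 to 50 kb the shares were 58.8%, 46%, 63.6% and 57.9%. Of the 59, 17 had none in any list and 14 had one in every list, while 47.7% of all genes had a peak in at least 1 list and 17.2% in every list. The 14 were *Slc22a2*, a transporter silenced by *Airn* in the placenta, *Kcnq1*, *Cdkn1c* and *Tssc4* of the *Kcnq1ot1* domain, *Atp10a* beside *Snrpn*, *Rtl1* and *Dio3* beside *Meg3*, and *Copg2*, *Grb10*, *Gnas*, *Blcap*, *Trappc9*, *H13* and *Jade1* elsewhere. *Kcnq1* contains *Kcnq1ot1*, and without the peaks that both share it had 2, 0, 1 and 2, a peak in 3 of the lists. *Mas1* shared its GFP DOX peak with *Airn*. *Cdkn1c*, an inhibitor of the cell cycle 2.71 kb long, had 1, 2, 1 and 1 peaks, in contrast to *Kcnq1ot1*, which had none in GFP mock. *Rtl1*, which is antisense to part of the RNAs of the *Meg3* domain, had 3, 2, 1 and 1.

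A top-decile peak in at least 1 list was present in 12 of the 59, and in 16.2% of all genes. *Kcnq1*, a potassium channel, had the highest score, in Cre mock at chr7:143368303-143368532 (score 95, 7.37-fold), outside *Kcnq1ot1*. *Atp10a* had a score of 67 in GFP mock. *Grb10*, an adaptor that restrains growth factor signalling, had a promoter peak with 76.4% GC in GFP mock (score 39) and one with 78.1% GC in GFP DOX (score 49). *Dio3*, the enzyme that inactivates thyroid hormone, had one with 82.6% GC in GFP DOX (score 30), *Jade1* one with 86.6% GC in Cre mock (score 50), *Gnas* one in Cre mock (score 37) and *Sfmbt2* one in GFP mock (score 46). *Trappc9* had top-decile peaks in both mock lists (2 each) and in GFP DOX (1), and *Slc22a3* (GFP DOX), *Usp29* and *Zim1* (GFP mock) and *Sgce* (Cre DOX) had 1 each.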

How the data were processed

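DRIP-seq was performed in MEFs, with 8 samples of which 4 were immunoprecipitated (1 per condition, from 3 pooled immunoprecipitations after digestion with 5 restriction enzymes) and 4 were inputs, not analysed here. According to the methods, reads were processed with nf-core/chipseq 1.2.1, aligned to mm10 with BWA and peaks were called with MACS2 (version not given in the sources used here). The deposited lists are broad peaks, whereas the stated command carries a narrow-peak option, and whether inputs served as control is not stated. Broad calling joins nearby signal and widens overlaps. The deposited score is 10 times the −log10 q-value, rounded down. The deposited fold enrichment is a ratio to local background, and the −log10 p-value and the deposited −log10 of q were also set by the caller. None is normalised between libraries. Read depth is not part of the lists, and a deeper library can give more peaks.

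Conditions were taken from the labels. All peaks were used, with Python 3.11.15, pandas 2.3.3, numpy 2.4.6 and scipy 1.17.1. Gene bodies of GENCODE M21 were extended by 1 kb, and a promoter was 1 kb to each side of any start site of the gene. Each peak was placed in the first class that it met (promoter, exon, intron, flank). For the shares over all peaks, start sites and exons of every gene were used. GC, masked share (lower-case bases) and G4Hunter scores (window 25, threshold 1.5, both strands) came from GRCm38.p6. Counts in gene lists and G4Hunter were tested on simulated data. Top decile means at or above the 90th percentile of the scores of a list, ties included. No test between conditions was possible. All 10 genes were named, with each promoter peak except 1 that is not reported here, the highest-scoring peak per list, and, of the other imprinted genes, those in all lists or with a top-decile peak. The genes, lists and alternatives were chosen with earlier results of these data known.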

Additional observations from a re-analysis of the deposited data

Results flagged for a closer look

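Over the 10 genes, the number of distinct peaks in DOX minus that in mock was -4 for GFP and 14 for Cre cells, so that the sign differed between genotypes. In *Airn* the same difference was -3 and 2. The number of *Airn* peaks in Cre minus that in GFP was -1 without doxycycline and 4 with it. For *Snhg14* it was -2 without doxycycline and 10 with it. With 1 library per condition none of these differences between contrasts was tested. Groups of 1 library could not be examined for outlying samples.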

How the results depend on the processing

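Of 210 recomputed values, 172 did not turn direction and stayed within a factor of 1.5 (counts) or the counting interval (shares and ratios), 33 moved further and 5 turned direction. The first class includes ratios that came to 1, GFP DOX over GFP mock with equal numbers of peaks and Cre mock over GFP mock under the limit of 2 on −log10 q. A further 6 had no value because no peak was left to divide by. Body extensions of 0 and 5 kb, peak midpoints, a counterpart within 500 bp and, chosen after seeing the data, RefSeq gene models and counterparts on the same restriction fragment were in the first class throughout. With top-decile peaks only, genes with a peak numbered 3, 0, 0 and 1 in the 2 GFP and the 2 Cre lists (mock before DOX), as did peaks (3, 0, 0 and 1). The mostly masked share was then 0% in GFP mock and 100% in Cre DOX, the ratio of peaks was 0 for Cre mock over GFP mock and 0 for GFP DOX over GFP mock, and the share without a counterpart was 100% for GFP mock against GFP DOX and 100% for Cre DOX against GFP DOX. With a −log10 q-value of at least 2, peaks numbered 6, 3, 6 and 11, GFP DOX had 3 genes with a peak, and the share without a counterpart was 100% for Cre mock against GFP mock and 100% for GFP mock against GFP DOX. With each list held to its best 60219 peaks by score, Cre mock had 10 and Cre DOX 19 peaks, and the ratio of Cre mock over GFP mock turned to 0.833. With peaks at most 50% masked, GFP DOX had 2 genes and 3 peaks and Cre DOX 8 peaks, the ratio was 0.273 for GFP DOX over GFP mock and turned to 0.571 for Cre DOX over Cre mock, and the share without a counterpart was 92.9% for Cre mock against Cre DOX and 100% for Cre DOX against GFP DOX. With a common minimum width of 213 bp it was 100% for GFP mock against GFP DOX. Under 50% reciprocal overlap it was 100% for GFP mock against GFP DOX, 94.7% for Cre mock against Cre DOX and 97% for Cre DOX against GFP DOX. The ratio of GFP DOX over GFP mock turned to 1.09 as a share of the list and to 1.07 as covered length. With *Snhg14* left out, also chosen after seeing the data, Cre DOX had 20 peaks. Beyond the smaller number of peaks that a filter leaves, the cause was not tested.

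No paired analysis was possible because each condition had 1 library and no test was made. For the same reason no replicate was left out. The unknown depth and the small number of peaks per gene limit each of these comparisons.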
